A study of Homo sapiens with 6 samples.

Results

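The interferon-stimulated genes described here were 51 genes, given by symbol, that are known to respond to interferon: sensors and transcription factors, antiviral effectors, the ISG15 conjugation system, restriction factors and chemokines. They were found by symbol in a table of 25349 genes, in which all 51 had a row. After the filter on low counts, 49 of the 51 were tested among 14661 genes. The choice used no values of the knockdown comparison, but it was made with earlier results of these data known.

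RNA was sequenced from SCC-9, an established line of squamous carcinoma cells from the human tongue. The 3 siE7 libraries came from cells that received an siRNA directed at exon 7 of MKI67, and the 3 siNC libraries from cells that received a nonspecific siRNA. MKI67 encodes Ki67, the nuclear protein used to mark dividing cells. In both groups lipofection brought in the siRNA at 10 nM on day 0 and, after passage, on day 2. RNA was isolated on day 4, and the medium held 400 ng/mL of hydrocortisone, a glucocorticoid. Both groups had thus received transfected siRNA duplexes, and untransfected cells are not analysed here. The duplexes differed in sequence between the groups, so effects of the sequence and of the loss of Ki67 cannot be told apart. Which exon 7 siRNA was used for sequencing is not given in the sources used here. SCC-9 is 1 cell line, and nothing in the labels says whether the libraries of a group came from separate cultures, so p-values measure the spread between these libraries, which may be technical.

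Interferons are secreted proteins that cells release on sensing foreign nucleic acid. Type I and type III interferons bind their receptors and activate the kinases JAK1 and TYK2, which phosphorylate STAT proteins, STAT2 among them. With IRF9 these form the factor ISGF3, which binds the interferon-stimulated response element (ISRE) in the promoters of its target genes, while interferon gamma acts mainly through another STAT complex at the gamma-activated site (GAS). Squamous epithelial cells carry these receptors and keep many of the target genes at a low level in the absence of infection, and double-stranded RNA, including transfected siRNA, is a known inducer.

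The libraries held 25608192 to 29550264 counts on genes. Levels are given in CPM, counts divided by the library size, after scaling by TMM factors, which lay between 0.936 and 0.954 in the siNC libraries and between 1.00 and 1.10 in the siE7 libraries. MKI67 fell from 1059 ± 26.7 CPM (SD, n = 3) to 115 ± 8.70 CPM (SD, n = 3), a log2 fold change of -3.21 (SE 0.114, adjusted p = 6.7e-08 by the quasi-likelihood test of edgeR, adjusted after Benjamini and Hochberg over all genes tested). The squamous markers KRT5, KRT14, KRT6A, TP63, CDH1 and DSP were all present, at 15422 to 20488 CPM in sum, mostly KRT14. With all libraries KRT5, TP63, CDH1 and DSP were called lower with siE7 (log2 fold changes -0.60, -0.33, -1.03 and -0.38). KRT14 and KRT6A were not called, and without siE7 replicate 1 KRT6A was called lower at -0.44 (adjusted p = 3.54e-08). Of the immune markers, PTPRC, CD3E and LYZ had no row in the table and CD14 lay between 1.34 and 3.52 CPM, while the sum of the endothelial markers reached 0.492 CPM and that of 6 fibroblast markers, mostly COL1A1, lay between 16.5 and 24.2 CPM. One library, siE7 replicate 1, stood apart from siE7 replicates 2 and 3 in a way that followed the GC content of the transcripts. Where leaving it out changed the call of a gene described below, the value without it is also given. That fit, stressed after seeing the data, sets only siE7 replicates 2 and 3 against the siNC libraries. These replicates lay close to each other (chi-square per degree of freedom 6.22, against 61.1 and 72.7 to siE7 replicate 1). The small p-values of that fit thus measure a narrow spread and are not stronger evidence than the fit of all libraries.

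The members did not move in 1 direction. At an adjusted p under 0.05, 5 of the 49 tested members rose with siE7 (10.2%) and 12 fell (24.5%), while over all 14661 genes tested 18.0% rose and 16.0% fell. The 5 that rose were GBP2, IFI44L, BST2, IFI6 and IFI27, and the 12 that fell were CXCL11, SAMD9, PML, OAS3, MX2, HERC6, IRF1, OAS2, OAS1, MX1, PARP12 and TRIM21. The fold changes of the other 32 did not pass the test. The median log2 fold change of the members was -0.15, with 17 above 0 and 32 below 0, beside a median of 0.08 over all genes tested. In RNA of whole cultures, fewer cells with a transcript and less transcript per cell cannot be told apart.

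With the further condition of a log2 fold change beyond 1 in size, which defines a differentially expressed gene (DEG), 2 members were upregulated (GBP2 and IFI44L) and 2 downregulated (SAMD9 and CXCL11). OAS3 (-0.996) and PML (-0.999) missed the limit of -1 narrowly, and 4 members were downregulated DEGs without siNC replicate 2, siNC replicate 3 or siE7 replicate 1 and with DESeq2, RLE size factors, no filter on low counts or the replicate block. Over all genes tested, 7.38% were upregulated DEGs and 4.84% downregulated DEGs. For 8 members every siE7 library lay above every siNC library and for 20 every siE7 library lay below, where the same held for 24.9% and 22.7% of all genes tested. The exact two-sided permutation test over the 6 libraries gives p = 0.10 to each such gene, the smallest p that 3 libraries against 3 allow. The median of all genes depended on the scaling: when library totals alone set the scale it rose by 0.17 on the log2 scale, and then 9 members were called higher and 6 lower, beside 27.5% and 11.1% of all genes.

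**Figure D1:**
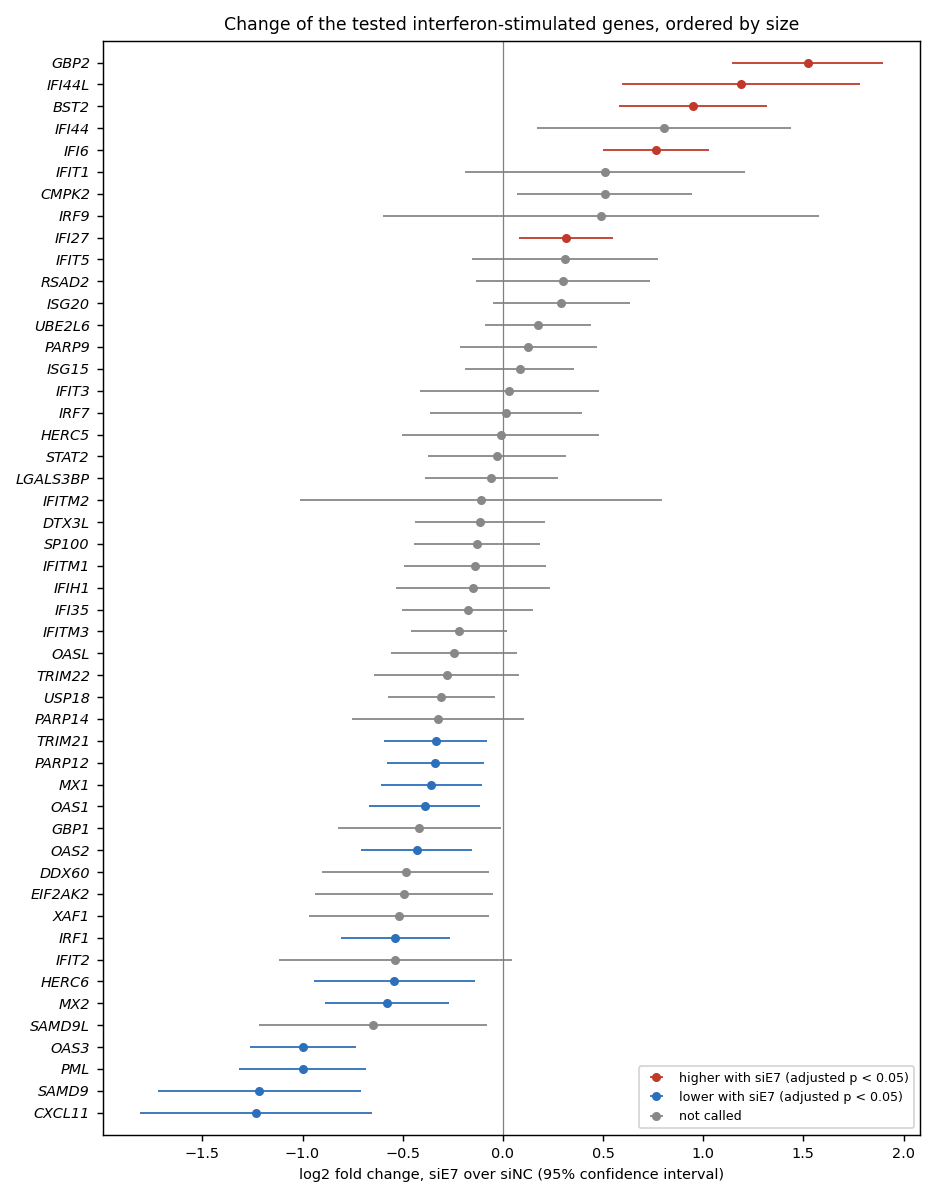
Log2 fold change of each of the 49 tested members, siE7 over siNC, with its 95% confidence interval from edgeR's fit on 3 libraries a group, ordered by size and coloured by call at an adjusted p under 0.05. GBP2 stands at the top with 1.52 and CXCL11 at the bottom with -1.23, and most members lie between -0.5 and 0.5.

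Without siE7 replicate 1, 11 members were called higher and 24 lower, where 28.9% and 29.5% of all genes were called. BST2, IFI6, IFI44L and GBP2 were called higher, and IRF1, OAS3, SAMD9, PML and CXCL11 lower, in each of the 14 alternative settings tried, among them DESeq2, other scalings and each library left out in turn. Leaving out siNC replicate 1, 2 or 3 instead gave 6, 6 and 5 members called lower, and leaving out siE7 replicate 3 gave 7. Of all genes tested, 10.5%, 10.5%, 10.3% and 12.9% were called lower in these fits. MX2 was called in 13 of the 14 and lost its call without siNC replicate 3 (adjusted p = 0.0502). The calls of IFI27, HERC6, OAS1, OAS2, MX1, PARP12 and TRIM21 were held in 5 to 8 of the 14 and were each lost when single siNC libraries were left out.

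The sequences before the start sites are shown because these genes were called in opposite directions. Many of them are known targets of ISGF3 and IRF proteins, which was not tested here. In the RefSeq promoter windows on GRCh38.p14, from 250 bases before to 50 bases after a start, the ISRE letters GAAANNGAAA were searched on both strands, overlapping matches included. They were found in 33 of 53 windows of the members (62.3%), against 3.57% of all 35116 windows. By gene, 29 of the 41 members with a window held them: 4 of 4 that rose, 5 of 9 that fell, 18 of 26 that were not called, and CXCL10 and TLR3, which were not tested. Of all genes with a window, 4.38% held them. The following stretches lie in the windows of BST2 at chr19:17405725-17405780 (minus strand), IFI6 at chr1:27672256-27672368 (minus strand), IFI44L at chr1:78620264-78620404 (plus strand) and IFI27 at chr14:94110608-94110670 (plus strand), all of which rose. Each is read 5′ to 3′ on the strand of the gene, and capitals mark the matches, which appear as the reverse complement where they lie on the other strand.
BST2: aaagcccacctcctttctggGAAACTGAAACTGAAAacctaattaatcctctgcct
IFI6: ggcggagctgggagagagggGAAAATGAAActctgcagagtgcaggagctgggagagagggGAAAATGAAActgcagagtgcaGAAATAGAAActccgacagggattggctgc
IFI44L: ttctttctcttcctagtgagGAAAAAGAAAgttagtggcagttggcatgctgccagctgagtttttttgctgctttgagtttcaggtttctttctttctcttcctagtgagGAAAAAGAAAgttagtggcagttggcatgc
IFI27: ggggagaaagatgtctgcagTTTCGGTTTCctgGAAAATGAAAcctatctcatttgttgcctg
In BST2 the 2 matches overlap. In IFI6 there are 3, of which a pair is identical in its letters, and in IFI44L the 2 matches read the same, GAAAAAGAAA. IFI27 holds 1 match on each strand.

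Of the members that fell, the windows of OAS3 at chr12:112938311-112938491 (plus strand), SAMD9 at chr7:93118086-93118135 (minus strand), PARP12 at chr7:140062932-140062981 (minus strand), TRIM21 at chr11:4393653-4393705 (minus strand) and MX1 at chr21:41420549-41420598 (plus strand) hold the same letters. They are shown beside those of ISG15 at chr1:1013364-1013419 (plus strand) and IFIT1 at chr10:89392487-89392549 (plus strand), which were not called.
OAS3: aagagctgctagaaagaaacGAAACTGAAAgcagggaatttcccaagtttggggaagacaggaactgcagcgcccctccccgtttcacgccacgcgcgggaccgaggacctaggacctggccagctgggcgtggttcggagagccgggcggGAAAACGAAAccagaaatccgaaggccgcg
SAMD9: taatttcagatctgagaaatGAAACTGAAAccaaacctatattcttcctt
PARP12: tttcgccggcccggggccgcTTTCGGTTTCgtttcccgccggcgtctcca
TRIM21: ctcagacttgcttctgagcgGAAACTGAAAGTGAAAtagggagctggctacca
MX1: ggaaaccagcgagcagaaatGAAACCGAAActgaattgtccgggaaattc
ISG15: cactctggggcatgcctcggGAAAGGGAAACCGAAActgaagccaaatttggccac
IFIT1: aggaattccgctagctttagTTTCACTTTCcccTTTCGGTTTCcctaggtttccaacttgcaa
The core GAAACTGAAA occurs in BST2, which rose, and in OAS3, SAMD9 and TRIM21, which fell, so these letters did not separate the directions among the genes shown. The windows of CXCL11, IRF1, OAS1 and HERC6, which also fell, held no ISRE match. The GAS letters TTCNNNGAA, which read the same on both strands, were in 13 of 53 windows of the members (24.5%), against 7.66% of all windows. By gene, 2 of 4 members that rose held them, 4 of 9 that fell and 5 of 26 that were not called, against 9.38% of all genes with a window. No window was given for GBP2, PML, OAS2, MX2, IRF7, IFIT2, OASL, USP18, IFITM2 and TRIM22.

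Per kilobase of the canonical transcript, which makes levels comparable between genes, ISG15 was the highest member in the siNC libraries with 458 CPM per kb, followed by LGALS3BP with 394. IFI27 (128), IFITM3 (126), MX1 (121) and IFI6 (110 CPM per kb) came next. In the siE7 libraries IFI6 (186) and IFI27 (159 CPM per kb) stood above IFITM3 (108) and MX1 (94.8). GBP2 and IFI44L, the members with the largest increases, were among the lowest with siNC, at 1.46 and 0.682 CPM per kb, and reached 4.19 and 1.55 CPM per kb with siE7. At the low end, TLR3, the endosomal receptor of double-stranded RNA, had 0 counts in all siNC libraries and 0, 2 and 3 counts in the siE7 libraries. CXCL10, a chemokine used as a marker of the interferon response, had 10, 8 and 10 counts with siNC and 5, 10 and 6 with siE7. Both were left out by the filter, and counts this low do not show a difference.

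GBP2 was the member that rose most. It encodes a guanylate-binding protein, a GTPase that is induced strongly by interferon gamma and attacks the compartments in which intracellular pathogens live. Its levels in the siNC libraries were 5.67, 6.37 and 5.87 CPM, and in the siE7 libraries 14.1, 19.4 and 18.0 CPM. All siE7 libraries lay far above all siNC libraries, a 2.87-fold increase (log2 fold change 1.52, SE 0.173, adjusted p = 8.56e-05 by edgeR's quasi-likelihood test). GBP2 (ENSG00000162645.13) lies on the minus strand at chr1:89106132-89150456, and 3 annotated genes overlap it. Of these GBP7, on the same strand, had 0 to 2 counts per library. GBP1, its neighbour on the same strand at chr1:89051882-89065360, stood at 25.0, 24.9 and 26.0 CPM with siNC and at 13.2, 21.2 and 22.4 CPM with siE7. The groups did not overlap for GBP1 either, but its log2 fold change of -0.42 did not pass the test (adjusted p = 0.106). When siE7 replicate 1 was left out, GBP1 was called lower at -0.27 (adjusted p = 0.0103) and GBP2 higher at 1.58. GBP genes are close copies of each other, and how reads shared by them were counted is not given in the sources used here.

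Of the 5 genes that carry an IFI name, IFI6, IFI27 and IFI44L rose. IFI44L, a gene of the interferon signature used in blood tests, was at 4.46, 3.76 and 3.71 CPM with siNC and at 5.23, 11.1 and 10.9 CPM with siE7. Its lowest siE7 library, replicate 1, was still above the highest siNC library. The log2 fold change was 1.19 (SE 0.271, adjusted p = 0.00618 by edgeR's quasi-likelihood test), and without siE7 replicate 1 it was 1.40. IFI44, which lies next to IFI44L on chromosome 1 (IFI44L at 78619902 to 78646145, IFI44 at 78649796 to 78664078, both on the plus strand), was at 27.0, 28.6 and 26.8 CPM with siNC and at 22.6, 58.0 and 63.6 CPM with siE7. Here siE7 replicate 1 lay below every siNC library while siE7 replicates 2 and 3 were at more than the double of them. With all libraries IFI44 just missed the threshold (log2 fold change 0.80, adjusted p = 0.0502). Without siE7 replicate 1 it was called higher with a log2 fold change of 1.08 (adjusted p = 4.51e-15), which rests on siE7 replicates 2 and 3 alone.

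IFI6 and IFI27 encode small hydrophobic proteins of 1 family that sit in membranes of mitochondria or the endoplasmic reticulum. IFI6 was at 99.9, 82.5 and 84.7 CPM with siNC and at 162, 138 and 153 CPM with siE7. The groups did not overlap, and the log2 fold change was 0.76 (SE 0.120, adjusted p = 0.000676). The gene LINC02574 overlaps IFI6 on the same strand (chr1:27660328-27666279) and moved by a similar amount, from 13.0 to 21.5 CPM on average with a log2 fold change of 0.72 (adjusted p = 0.00272), and how reads of the overlap were assigned is not given in the sources used here. IFI27, whose levels were 91.5, 94.9 and 92.3 CPM with siNC and 124, 116 and 107 CPM with siE7, rose by 24.4% (log2 fold change 0.32, adjusted p = 0.0418). Its call was lost in 8 of the 14 alternatives, with DESeq2 among them, at adjusted p-values up to 0.162. IFI35, the fifth of these genes and a partner of NMI in the cytosol, did not pass the test (log2 fold change -0.18, adjusted p = 0.389), and without siE7 replicate 1 it was called lower at -0.39.

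Among the membrane proteins that block viral entry or release, BST2 rose and the IFITM genes did not pass the test with all libraries. BST2, also called tetherin, holds budding virus particles at the cell surface. It stood at 15.6, 11.6 and 12.6 CPM with siNC and at 30.0, 24.9 and 21.9 CPM with siE7. The siE7 libraries were all above the siNC libraries, with a log2 fold change of 0.95 (SE 0.168, adjusted p = 0.00147). BST2 (ENSG00000130303.14, chr19:17402939-17405630, minus strand) overlaps no other annotated gene. IFITM3, the highest of the IFITM genes per kilobase, was at 76.6, 77.3 and 77.6 CPM with siNC and at 72.1, 64.0 and 62.4 CPM with siE7. These groups did not overlap, but the log2 fold change of -0.22 missed the threshold (adjusted p = 0.141), and without siE7 replicate 1 IFITM3 was called lower at -0.35 (adjusted p = 1.15e-05). IFITM1 lay between 7.64 and 9.41 CPM and IFITM2 between 0.720 and 1.97 CPM over all libraries, with overlapping groups. The IFITM genes are close copies of each other, and IFITM1 and IFITM2 also overlap a transcribed locus on the same strand with 36 to 74 counts, so the split of reads between them is uncertain.

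**Figure D2:**
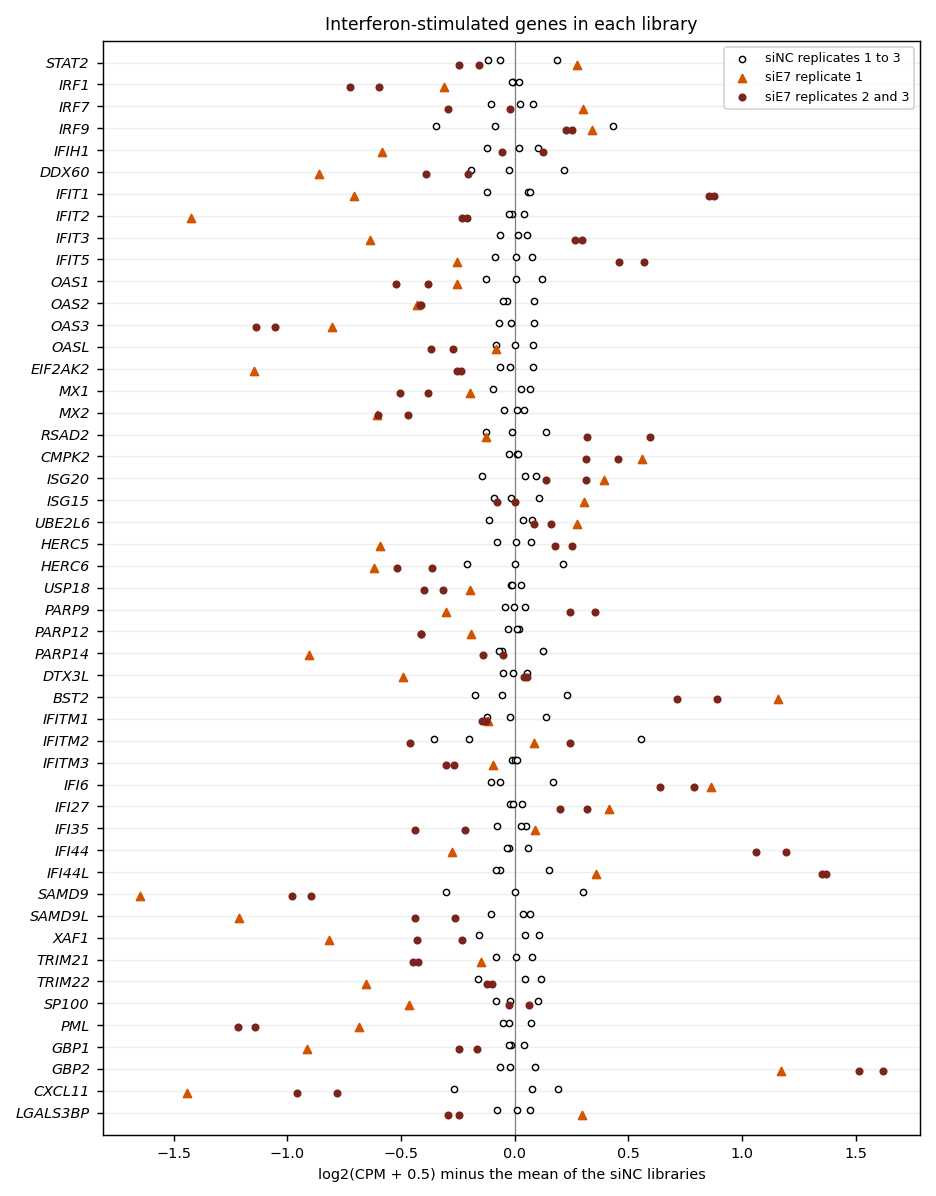
Level of each tested member in each of the 6 libraries, as log2(CPM + 0.5) minus the mean of the 3 siNC libraries, in the order of the genes' roles. Open circles are siNC libraries, filled circles siE7 replicates 2 and 3, and triangles siE7 replicate 1, which lay below both other siE7 libraries for 25 members and above both for 23.

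The oligoadenylate synthetases OAS1, OAS2 and OAS3 fell. These enzymes are activated by double-stranded RNA and make the oligoadenylates that switch on RNase L. OAS3 went from 205, 184 and 191 CPM with siNC to 111, 92.7 and 87.6 CPM with siE7. Every siE7 library was far below every siNC library, with a log2 fold change of -0.996 (SE 0.121, adjusted p = 0.000131 by edgeR's quasi-likelihood test), the smallest p-value of the members that fell. OAS1 was at 49.5, 41.6 and 45.6 CPM with siNC and at 38.1, 34.8 and 31.5 CPM with siE7. Its siE7 libraries were all lower, with a log2 fold change of -0.39 (adjusted p = 0.0342). OAS2 went from 26.9, 24.7 and 24.4 CPM to 18.7, 18.9 and 18.8 CPM, with siE7 libraries that hardly differed from each other and a log2 fold change of -0.43 (adjusted p = 0.0217).

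OAS1, OAS3 and OAS2 lie side by side on the plus strand of chromosome 12 (OAS1 from 112905856 to 112933219, OAS3 from 112938051 to 112976460, OAS2 from 112978395 to 113011723), and 1 annotated gene on the other strand runs across all of them. OASL, which lies apart from them and has no synthetase activity, was at 17.7, 19.9 and 18.9 CPM with siNC and at 17.8, 14.5 and 15.5 CPM with siE7. The groups overlapped through siE7 replicate 1, and the log2 fold change was -0.24 (adjusted p = 0.212), while without that library OASL was called lower at -0.39 (adjusted p = 0.00169). EIF2AK2 encodes PKR, the kinase that stops translation when it binds double-stranded RNA. It was at 72.0, 67.2 and 65.1 CPM with siNC and at 30.5, 57.7 and 57.1 CPM with siE7, with the lowest value by far in siE7 replicate 1. With all libraries its log2 fold change of -0.49 did not pass the test (adjusted p = 0.0817), and without siE7 replicate 1 it was called lower at -0.31 (adjusted p = 0.000156).

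Both MX genes fell. MX1 and MX2 encode dynamin-like GTPases that trap viral nucleocapsids, MX1 in the cytoplasm and MX2 at the nuclear envelope. MX1 was at 353, 315 and 343 CPM with siNC and at 294, 258 and 237 CPM with siE7. The groups did not overlap, and MX1 fell by 21.9% (log2 fold change -0.36, adjusted p = 0.033). MX2 was at 16.2, 15.6 and 16.6 CPM with siNC and at 10.4, 10.5 and 11.5 CPM with siE7. It fell by 33.0% (log2 fold change -0.58, SE 0.143, adjusted p = 0.00904). They are neighbours on the plus strand of chromosome 21, MX2 at 41361999 to 41409393 and MX1 at 41420020 to 41470071.

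The other neighbouring pair of this group, RSAD2 and CMPK2 on chromosome 2, was not called. RSAD2 encodes viperin, an enzyme that makes a chain-terminating nucleotide, and CMPK2 the kinase that supplies its substrate. RSAD2 was at 10.2, 9.37 and 11.3 CPM with siNC and at 9.35, 15.8 and 12.9 CPM with siE7. The low value was again in siE7 replicate 1, and without it RSAD2 was called higher (log2 fold change 0.42, adjusted p = 0.00462). CMPK2 was at 2.96, 2.96 and 2.88 CPM with siNC and at 4.55, 4.20 and 3.76 CPM with siE7. Its groups did not overlap and its log2 fold change was 0.51 (adjusted p = 0.0687). ISG20, an exonuclease that degrades RNA, also had siE7 libraries that were all above siNC, at 11.7 to 14.1 against 9.57 to 11.4 CPM, with a log2 fold change of 0.29 (adjusted p = 0.171).

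The IFIT genes, whose proteins bind foreign RNA by its end and block its translation, all had their lowest level in siE7 replicate 1. IFIT1 was at 21.8, 19.1 and 21.9 CPM with siNC and at 12.6, 38.2 and 38.8 CPM with siE7. Thus siE7 replicate 1 lay below all siNC libraries and the other siE7 libraries well above them. With all 6 libraries the log2 fold change was 0.51 with a 95% confidence interval from -0.19 to 1.21, and without siE7 replicate 1 it was 0.82 (adjusted p = 2.07e-10). IFIT3, the highest of the family per kilobase, was at 87.0, 80.1 and 84.6 CPM with siNC and at 53.7, 101 and 103 CPM with siE7, which gave a log2 fold change of 0.03 with all libraries and 0.22 without siE7 replicate 1 (adjusted p = 0.0018). IFIT5 was at 10.1 to 11.4 CPM with siNC and at 8.97, 16.2 and 15.0 CPM with siE7. Its log2 fold change was 0.31 with all libraries and 0.47 without siE7 replicate 1 (adjusted p = 0.000752).

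IFIT2 went the other way in its family. It was at 20.7, 21.5 and 20.5 CPM with siNC and at 7.46, 17.7 and 18.0 CPM with siE7, so that every siE7 library was below every siNC library. Its log2 fold change was -0.54 (adjusted p = 0.14), and without siE7 replicate 1 it was called lower at -0.29 (adjusted p = 0.0118) while IFIT1, IFIT3 and IFIT5 were called higher. All 4 lie within a stretch of chromosome 10 on the plus strand (IFIT2 from 89283694, IFIT5 to 89421605). None of the 4 was called with all libraries.

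The ISG15 system links the ubiquitin-like protein ISG15 to newly made proteins. ISG15 itself was at 314, 288 and 273 CPM with siNC and at 360, 276 and 291 CPM with siE7. The groups overlapped, and the log2 fold change was 0.08 with a 95% confidence interval from -0.19 to 0.36 (adjusted p = 0.632). UBE2L6, the conjugating enzyme, had siE7 libraries between 35.1 and 40.1 CPM and siNC libraries between 30.6 and 34.9 CPM, with a log2 fold change of 0.18 (adjusted p = 0.291). USP18, the protease that removes ISG15 and also restrains the type I receptor, was at 32.0, 30.9 and 31.1 CPM with siNC and at 27.3, 25.1 and 23.6 CPM with siE7. All siE7 libraries were lower, but the log2 fold change of -0.31 missed the threshold (adjusted p = 0.0731), and without siE7 replicate 1 USP18 was called lower at -0.42 (adjusted p = 5.65e-05).

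HERC5 is the main ISG15 ligase in humans and HERC6 its relative next to it on chromosome 4. HERC6 was at 8.51, 7.29 and 9.92 CPM with siNC and at 5.36, 5.80 and 6.51 CPM with siE7, and fell with a log2 fold change of -0.54 (SE 0.183, adjusted p = 0.0403). HERC5 was at 8.47, 9.01 and 9.43 CPM with siNC and at 5.77, 10.8 and 10.2 CPM with siE7. Its siE7 libraries lay on both sides of the siNC libraries, and the log2 fold change was -0.01.

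PARP12 fell, and the other members of the ADP-ribosylation group were not called. PARP12, which adds single ADP-ribose units to proteins and restricts some RNA viruses, was at 126, 125 and 121 CPM with siNC and at 108, 92.9 and 92.8 CPM with siE7. It fell by 20.8% (log2 fold change -0.34, adjusted p = 0.035), and the groups did not overlap. PARP9 and the ubiquitin ligase DTX3L form a complex and share a promoter region in opposite orientation on chromosome 3. PARP9 was at 88.1 to 93.7 CPM with siNC and at 73.5, 116 and 108 CPM with siE7, with a log2 fold change of 0.13, and without siE7 replicate 1 it was called higher at 0.24. DTX3L was at 62.3 to 67.1 CPM with siNC and at 45.7, 66.3 and 67.0 CPM with siE7, with a log2 fold change of -0.11. PARP14, an ADP-ribosyltransferase near them, was at 40.5 to 46.3 CPM with siNC and at 22.4, 38.5 and 41.0 CPM with siE7, with a log2 fold change of -0.32. For all 3 the low siE7 library was replicate 1.

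SAMD9 showed one of the largest decreases. Its protein binds nucleic acid, restricts poxviruses and slows translation and growth when overactive. It was at 15.9, 19.7 and 12.8 CPM with siNC and at 4.72, 8.30 and 7.82 CPM with siE7. Although the siNC libraries were spread, all siE7 libraries lay below them, with a log2 fold change of -1.21 (SE 0.232, adjusted p = 0.00233 by edgeR's quasi-likelihood test) and of -1.06 without siE7 replicate 1. SAMD9L, its relative next to it on the minus strand of chromosome 7, was at 6.20, 6.04 and 5.45 CPM with siNC and at 2.26, 4.82 and 4.22 CPM with siE7. Its groups did not overlap either, but its log2 fold change of -0.65 did not pass the test with all libraries (adjusted p = 0.0736). XAF1, which counters an inhibitor of caspases, was at 6.33 to 7.70 CPM with siNC and at 3.81, 5.98 and 5.14 CPM with siE7, with a log2 fold change of -0.52 (adjusted p = 0.0717). Without siE7 replicate 1 both SAMD9L (-0.45) and XAF1 (-0.42) were called lower.

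PML and TRIM21 fell among the TRIM and nuclear body genes. PML is the protein that builds the nuclear bodies named after it, to which SP100 also belongs. PML was at 204, 191 and 187 CPM with siNC and at 120, 87.6 and 82.9 CPM with siE7. Its log2 fold change was -0.999 (SE 0.145, adjusted p = 0.000411), and here siE7 replicate 1 was the highest of the siE7 libraries, so that without it the log2 fold change was -1.25. TRIM21, the cytosolic antibody receptor, was at 171, 153 and 162 CPM with siNC and at 146, 120 and 118 CPM with siE7. Its log2 fold change was -0.34 (adjusted p = 0.0466), the highest adjusted p among the calls. SP100 was at 68.8 to 78.3 CPM with siNC and at 52.7, 76.1 and 71.5 CPM with siE7, and TRIM22, a ligase that restricts several viruses, at 28.0 to 34.1 CPM and at 19.7, 28.8 and 29.3 CPM. For SP100 and TRIM22 the groups overlapped and the log2 fold changes of -0.13 and -0.28 did not pass the test.

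CXCL11, a chemokine that draws activated T cells through the receptor CXCR3, had the lowest log2 fold change of the members with all libraries. It was at 5.02, 4.60 and 3.52 CPM with siNC and at 1.28, 2.32 and 2.00 CPM with siE7. All siE7 libraries were below all siNC libraries, with a log2 fold change of -1.23 (SE 0.265, adjusted p = 0.00451). Leaving out siE7 replicate 1 gave -1.08, and PML (-1.25) and OAS3 (-1.16) were then lower. CXCL11 lies on the minus strand at chr4:76033682-76041415, next to CXCL10, and 2 annotated genes overlap it. LGALS3BP, a secreted glycoprotein that binds galectins, was at 875, 821 and 908 CPM with siNC and at 1064, 733 and 707 CPM with siE7. Its siE7 replicate 1 was the highest of all libraries and its other siE7 libraries were the lowest, which gave a log2 fold change of -0.06 with all libraries and a call as lower without siE7 replicate 1 (log2 fold change -0.33, adjusted p = 4.74e-06).

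Of the sensors, IFIH1 (MDA5, which detects long double-stranded RNA) was at 32.0, 30.3 and 27.3 CPM with siNC and at 19.7, 28.7 and 32.5 CPM with siE7, with a log2 fold change of -0.15 (adjusted p = 0.543). DDX60, a helicase linked to the same sensors, was at 22.8, 19.2 and 17.0 CPM with siNC and at 10.5, 16.9 and 14.8 CPM with siE7. Its groups did not overlap, by a small margin, and its log2 fold change was -0.48 (adjusted p = 0.0698). In the fit without siE7 replicate 1 DDX60 was called lower at -0.37 (adjusted p = 0.00518).

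Among the transcription factors IRF1 fell. IRF1 is a factor induced by interferon gamma that also keeps the basal level of several antiviral genes. It was at 146, 148 and 145 CPM with siNC and at 118, 88.5 and 96.7 CPM with siE7. The siNC libraries agreed closely and all siE7 libraries were lower, with a log2 fold change of -0.54 (SE 0.124, adjusted p = 0.00655) and of -0.72 without siE7 replicate 1. STAT2 was at 44.8, 36.3 and 37.6 CPM with siNC and at 47.7, 35.3 and 33.2 CPM with siE7, and IRF7, the amplifier of type I interferon production, at 14.1 to 16.1 CPM and at 12.3 to 18.8 CPM. In both the groups overlapped, with log2 fold changes of -0.03 and 0.01. STAT2 was called lower without siE7 replicate 1, at -0.27 (adjusted p = 0.00697), and IRF7 was not called there (-0.22, adjusted p = 0.104). IRF9, the DNA-binding part of ISGF3, had 5 to 18 counts per library, too few to show a difference. The annotated locus ENSG00000259529.2, which overlaps IRF9 on the same strand, had 2931 to 4454 counts per library and a log2 fold change of 0.06 (adjusted p = 0.743). Whether reads of IRF9 were counted there was not tested.

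**Figure D3:**
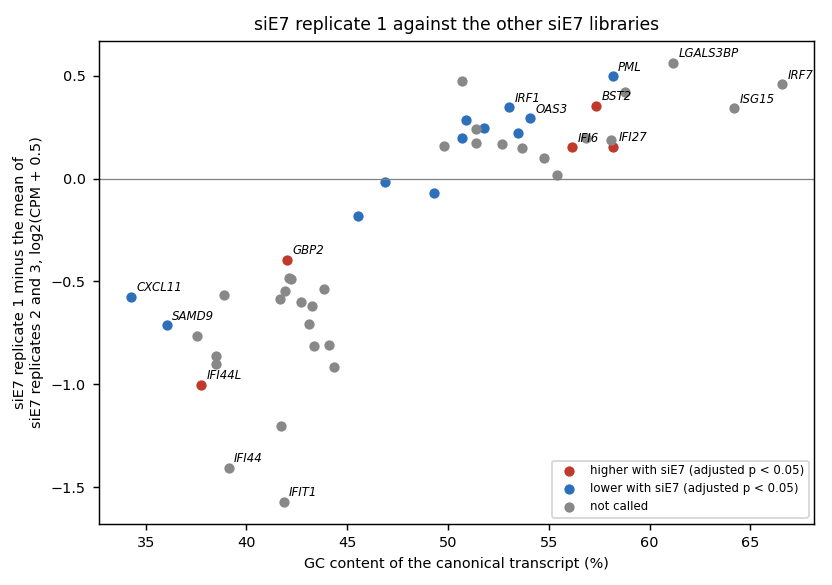
For each of the 49 tested members, the level in siE7 replicate 1 minus the mean of siE7 replicates 2 and 3, on the log2(CPM + 0.5) scale, against the GC content of its canonical transcript in percent, coloured by call. Members of low GC content, such as IFIT1 and IFI44, lie below 0, and members of high GC content, such as LGALS3BP and IRF7, above 0.

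The distance of siE7 replicate 1 from the other siE7 libraries followed the GC content of the transcripts. Over the 49 members Spearman's rho of that distance with GC content was 0.84, and over 14645 genes tested it was 0.75. These correlations run across genes of the same libraries, and genes are not independent replicates. For each siNC library against the other siNC libraries, the same rho over the members lay between -0.19 and 0.18. The median size of the distance was 0.458 for siE7 replicate 1 over the members, against 0.0753 to 0.102 for the siNC libraries. All 16 members with the lowest GC content (34.3% to 42.7%) were lower in siE7 replicate 1, with a median of -0.66, and none of the 16 with the highest (53.0% to 66.6%) was lower, with a median of 0.26.

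By its median, the distance of siE7 replicate 1 was thus larger in size for the members of lowest GC content than for those of highest. IFI44L (37.7% GC), SAMD9 (36.0%), CXCL11 (34.3%) and GBP2 (42.0%) were called with and without siE7 replicate 1, in the same direction. BST2 (57.3%), IFI6 (56.2%), OAS3 (54.1%), PML (58.2%) and IRF1 (53.0%) have transcripts of higher GC content and were likewise called both ways. An alternative in which the GC trend of each library was removed, chosen after seeing the data, called 7 members higher and 26 lower, where 24.5% and 26.1% of all genes were called. What made siE7 replicate 1 different was not tested.

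The interferons and the genes that carry their signal were examined as lists of genes that are no members. Of 22 interferon genes, 6 had a row in the table (IFNB1, IFNE, IFNK, IFNL1, IFNL2 and IFNL3), with a sum of 0.145 to 0.530 CPM per library, and none passed the filter. No difference in the interferons was detectable at this depth. Of 41 tested genes for receptors, kinases, STATs, inhibitors, sensors and adaptors, 3 rose (7.32%) and 12 fell (29.3%), beside 18.0% and 16.0% of all genes tested. Without siE7 replicate 1 the counts were 7 and 20, beside 28.9% and 29.5% of all genes.

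Of the 5 receptor chains tested, 1 rose and 2 fell, where 18.0% and 16.0% of all genes did. IFNGR1, the ligand-binding chain for interferon gamma, was at 27.0, 26.2 and 25.9 CPM with siNC and at 32.6, 61.7 and 62.0 CPM with siE7, and rose with a log2 fold change of 0.98 (adjusted p = 0.00429). Its partner chain IFNGR2 fell from 77.7, 75.4 and 77.9 CPM to 61.5, 52.8 and 52.1 CPM, with a log2 fold change of -0.47 (adjusted p = 0.00784). IFNAR2, the binding chain for type I interferon, fell from 33.9, 34.9 and 35.4 CPM to 19.8, 20.6 and 20.0 CPM, with a log2 fold change of -0.79 (adjusted p = 0.000531). The 2 chains of the gamma receptor were thus called in opposite directions. IL10RB, a chain of the type III receptor, had under 1 CPM in every library. The annotated locus that overlaps both IL10RB and IFNAR2 on the same strand had 793 to 1005 counts per library. Its log2 fold change was -0.14 (adjusted p = 0.449 by edgeR's quasi-likelihood test). How reads shared by this locus and IFNAR2 were assigned is not given in the sources used here, so the fall of IFNAR2 may depend on it.

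None of the kinases JAK1, JAK2 and TYK2, which carry the signal from the receptors, was called with all libraries. JAK1 had a log2 fold change of -0.29 (adjusted p = 0.101) and was called lower without siE7 replicate 1, at -0.27 (adjusted p = 0.00369). Among 14 inhibitors, 3 fell (21.4%) and 1 rose (7.14%), again beside 16.0% and 18.0% of all genes. SOCS1, which blocks JAK kinases, fell from 2.27, 2.36 and 2.46 CPM to 0.641, 0.761 and 0.850 CPM, a log2 fold change of -1.65 (adjusted p = 0.00102). CISH, of the same family, fell by 1.10 on the log2 scale and the phosphatase PTPN1 by 0.67 (adjusted p = 0.00227 and 0.000526), and the repressor IRF2 rose by 0.45 (adjusted p = 0.0286).

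Of 17 tested sensors, adaptors and their factors, 7 fell (41.2%) and 1 rose (5.88%), where 16.0% and 18.0% of all genes did. The adaptor MYD88 fell from 79.1, 78.1 and 79.7 CPM to 43.7, 34.7 and 36.9 CPM, with a log2 fold change of -1.04 (adjusted p = 0.000101). TRIM25, the ligase that activates RIG-I, fell by 0.73 on the log2 scale (adjusted p = 0.000521) and TICAM1, the adaptor of TLR3, by 0.99 (adjusted p = 0.00135), while TRAF3 rose by 0.44 (adjusted p = 0.0133). RIGI, the sensor of short double-stranded RNA, was at 34.1, 33.6 and 32.8 CPM with siNC and at 12.6, 25.0 and 29.8 CPM with siE7. All siE7 libraries were lower, and the log2 fold change was -0.58 (adjusted p = 0.0884). The lowest value was in siE7 replicate 1, and without it RIGI was called lower at -0.35 (adjusted p = 0.000749). IRF3, the factor below these adaptors, was at 87.6 to 92.8 CPM with siNC and at 90.5 to 107 CPM with siE7, with a log2 fold change of 0.09 (adjusted p = 0.549).

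**Figure D4:**
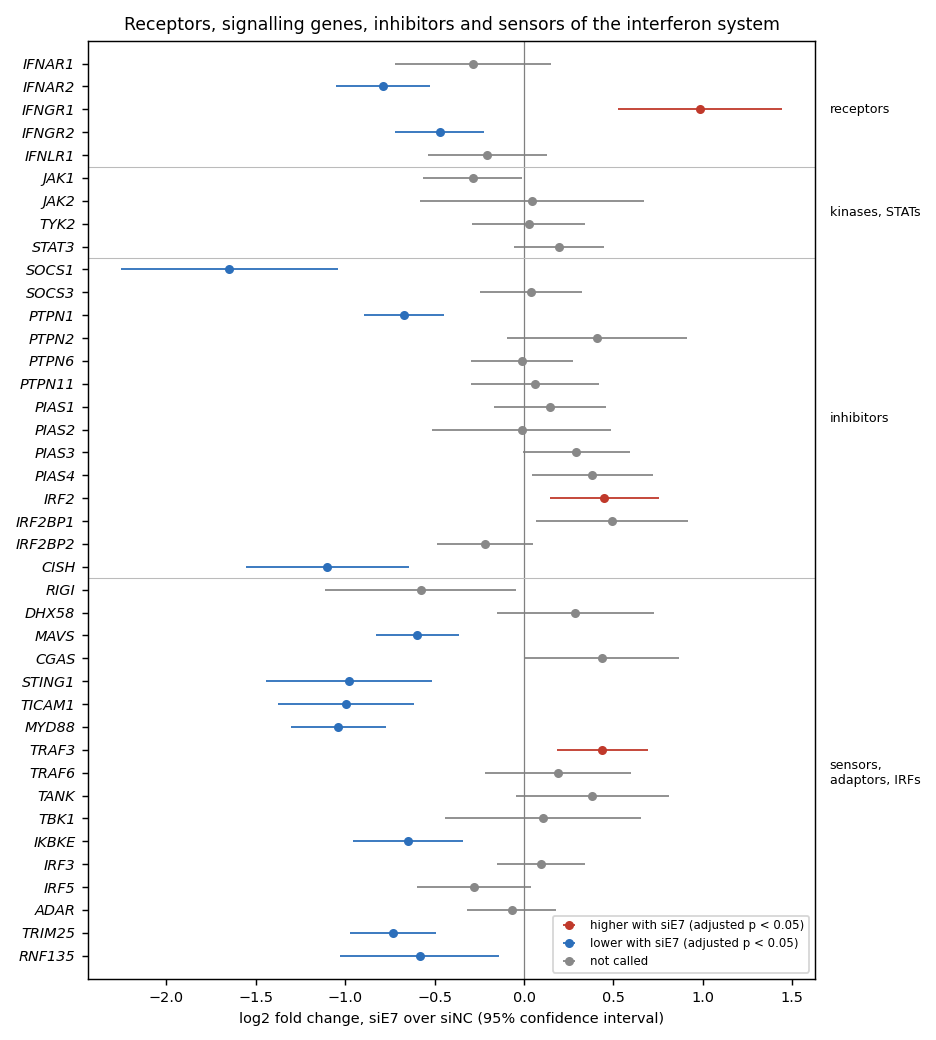
Log2 fold change of tested receptor, kinase, STAT, inhibitor, sensor and adaptor genes, siE7 over siNC, with 95% confidence intervals from edgeR's fit on 3 libraries a group, coloured by call at an adjusted p under 0.05. SOCS1 lies lowest at -1.65 and IFNGR1 highest at 0.98, and none of the kinases JAK1, JAK2 and TYK2 was called with all libraries, while JAK1 was called lower without siE7 replicate 1.

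Another 61 interferon-stimulated genes, listed as no members, were examined in the same way. Of the 56 tested, 12 rose (21.4%) and 11 fell (19.6%), with a median log2 fold change of 0.05, beside 18.0%, 16.0% and a median of 0.08 over all genes tested. OGFR, the opioid growth factor receptor, rose from 142, 153 and 144 CPM to 498, 380 and 368 CPM (log2 fold change 1.51, adjusted p = 1.51e-05), and TRIM56, a ubiquitin ligase of antiviral signalling, and APOL2, of the apolipoprotein L family, rose by 0.71 and 0.69 on the log2 scale. LAMP3, a lysosomal membrane protein, fell by 1.55 on the log2 scale (adjusted p = 0.000198), the Schlafen gene SLFN5 by 1.18 and DDX60L, a relative of DDX60, by 1.12. Whether their split differed from that of the members was not tested. Without siE7 replicate 1, 16 of these genes were called higher and 19 lower, where 28.9% and 29.5% of all genes were called.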

How the data were processed

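The data are RNA sequencing counts of SCC-9 cells, 3 siE7 and 3 siNC libraries. The authors deposited whole-number read counts per gene and library, without normalization. Directional poly(A) libraries were read as pairs on an Illumina Novaseq. HISAT2, DESeq2 and the build GRCh38 come from the submitters' processing notes, and the counting tool, the annotation release, the treatment of reads shared by genes and the use of strand in counting are not given in the sources used here. Samples were grouped by their titles, and each library was 1 replicate.

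The members and the other gene lists were chosen with earlier results of these data known. Members were matched by symbol. Of 25349 genes, 14661 passed filterByExpr in edgeR 4.0.16 under R 4.3.3. With TMM scaling, the groups were compared by the quasi-likelihood test of edgeR with robust dispersions, Benjamini-Hochberg adjustment over all genes tested and a threshold of 0.05. The SE was computed back from that test, as the size of the log2 fold change divided by the square root of its F statistic. Intervals are 95% confidence intervals built from this SE. Levels are TMM-scaled CPM, and 0.5 CPM was added before log2 for values per library. Effective library sizes after the filter and TMM scaling, 24687927 to 30573333, make 3 counts worth 0.0981 to 0.122 CPM. Intervals and counts near 0 cover the spread of these libraries and counting error only.

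Named were all members by role, those past the threshold with their values per library, MKI67, up to 3 genes per direction with the smallest p-values in each other list, and RIGI and IRF3. Some genes that the rule or the marker lists would name are not reported here. Values per library of members that were not called go beyond this rule. The alternatives were DESeq2 1.42.0, scaling by RLE, by upper quartiles or by library totals only, a test of all genes without the filter, a minimum of 10 counts per library, a replicate block, each library left out in turn and, added after seeing the data, removal of each library's GC trend (a lowess fit, span 0.3). Positions, lengths and GC content come from GENCODE v44 on GRCh38, to which 25283 identifiers were matched without their version and 20655 with it. Promoter windows are RefSeq's, on GRCh38.p14, and 41 of the 51 members were matched by symbol. The test was checked on simulated data with known changes. The simulated libraries held no deviating library and no GC trend, so the check does not cover what siE7 replicate 1 showed. Tables and figures were made with Python 3.11.15, pandas 2.3.3 and matplotlib 3.10.9.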

Additional observations from a re-analysis of the deposited data

How the results depend on the processing

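Of 49 tested members, 9 kept their call and direction in all 14 alternatives (4 higher, 5 lower), and no fold change of a called member changed sign. With no composition scaling, 9 members were called higher and 6 lower, beside 27.5% and 11.1% of all genes tested. The members' median log2 fold change was then 0.029 in place of -0.15, and that of all genes tested 0.25 in place of 0.08. In that setting 9 interferon system genes were called higher. With the GC trend removed, 26 members were called lower and 6 interferon system genes higher, where 26.1% of all genes tested were called lower and 24.5% higher. With 1 library left out, 4 to 11 members were called higher and 5 to 24 lower, 2 to 4 members were downregulated DEGs, 1 to 7 interferon system genes were called higher and 11 to 20 lower, 6 to 16 of the other interferon-stimulated genes were called higher and 9 to 19 lower, and 3153 to 8765 of all genes were called. Apart from the downregulated DEGs, where several libraries gave 4, the highest of each of these counts came without siE7 replicate 1. With 1 library left out, 10.6% to 28.9% of all genes tested were called higher and 10.3% to 29.5% lower. Without siNC replicate 1, 2 or 3, calls among all genes numbered 3236, 3188 and 3153 in place of 4990, and those among the other interferon-stimulated genes that were higher 7, 7 and 6 in place of 12. Without siNC replicate 1 or 2, IFNGR1 was the 1 interferon system gene called higher. DESeq2, RLE size factors, no filter on low counts and the replicate block each called 4 members downregulated DEGs, in place of 2. The causes were not tested.

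The replicate numbers are shared by the groups, and the deviations of same-numbered libraries from their group means correlated at -0.055, -0.019 and -0.079. Because siE7 replicate 1 stood far from the other siE7 libraries, these values cannot show whether same-numbered libraries shared a culture. With the replicate block, 5 members were called higher and 13 lower, beside 5 and 12 without it. Of all genes tested, 17.7% were called higher and 16.1% lower with the block. With 3 libraries a group the exact permutation test cannot go below p = 0.10, and TLR3, CXCL10, IRF9 and the interferons had too few counts for a statement on a change.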
